A study of Rattus norvegicus with 12 samples.

Results

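The AMPA and NMDA receptor subunits examined here are 9 genes, the 4 AMPA subunit genes *Gria1*, *Gria2*, *Gria3* and *Gria4* and the 5 NMDA subunit genes *Grin1*, *Grin2a*, *Grin2b*, *Grin2c* and *Grin2d*. Their members were all probe sets that the gene table of the array assigned to one of these symbols alone, which gave 14 of the 15923 probe sets on the array. RNA came from neurons taken by laser capture microdissection out of brain cryosections of untreated Fisher 344/BN F1 hybrid rats aged 6 months, and was amplified by two-cycle labeling before hybridization to Affymetrix RAE230A arrays. The 12 arrays cover hippocampal CA1 (3 arrays), hippocampal CA3 (3), the cerebellar granule layer (CbG, 3) and frontal cortex, layers IV through VI (CTX, 3). The study asked how neurons vulnerable to oxidative stress (VUL, CA1 and CbG) differ at rest from resistant ones (RES, CA3 and CTX). No array came from treated neurons.

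AMPA and NMDA receptors are the ion channels that open when glutamate is released at most excitatory synapses. AMPA receptors, built from the proteins of the Gria genes, carry the fast current, and the presence of the *Gria2* protein in its edited form keeps them almost closed to calcium. NMDA receptors pair the obligatory *Grin1* protein with Grin2 proteins, admit calcium, and are best known for their part in synaptic plasticity and in excitotoxic injury. Among the Grin2 genes, *Grin2b* is typical of the young forebrain, *Grin2a* of the mature brain, *Grin2c* of mature cerebellar granule neurons and *Grin2d* of the brainstem and of interneurons.

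The labels of some arrays and the markers of other cell types were looked at first. The array labelled CA3 replicate 3 had a signal of 2567.6 for *Gabra6*, the granule neuron GABA receptor subunit, against 5.60 and 38.6 in the other CA3 arrays, and 49.2 for *Nrgn*, a forebrain neuron gene, against 6294 and 7304. The array labelled CbG replicate 3 went the other way, with 15.4 for *Gabra6* and 6451 for *Nrgn*, so the signals of each of these 2 arrays resembled the region it was not labelled as. Differences were therefore fitted over the 10 remaining arrays (3 CA1, 2 CA3, 2 CbG and 3 CTX), and values over the 12 arrays as labelled and with these 2 labels exchanged are given beside them. The array labelled CbG replicate 3 also had 3769 for the CA1 marker *Wfs1*, against 481 to 1045 in the accepted CA3 arrays. Other cell types were represented: the summed signal of 5 Purkinje cell markers was 15789.4 to 37255.5 in CbG against 3809 to 8630 in the other regions, and that of 5 oligodendrocyte markers was 22140 to 35487 in CTX against 3850 to 5121 in CA1. Of 8 markers of deep cortical layers 3 had a probe set, of which 1, *Tle4*, was above the array median in every CTX array. It was above the median in every array of the other regions too, at 1255 to 1702 in CTX and 625 to 1066 elsewhere in the 10 arrays. In RNA pooled over captured cells, fewer cells of a type and less RNA per cell cannot be told apart.

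CA1 neurons had the highest signals of the AMPA subunits *Gria1* and *Gria2*, and granule layer neurons had the lowest signals of *Gria1*, *Gria2* and *Gria3*. CA3 lay above CTX without overlap for *Gria1*, while the 2 regions overlapped for *Gria2*. *Gria1* was 14.6-fold higher in CA1 than in CbG and 9.15-fold higher in CA3 than in CbG. The NMDA subunit *Grin2c* was instead highest in CbG, 4.32-fold higher than in CA1, 5.99-fold higher than in CA3 and 3.50-fold higher than in CTX. The probe sets of *Gria4*, *Grin2a*, *Grin2b* and *Grin2d* stayed near or under the median signal of their array in all 4 regions. Of the pairs of regions, the 2 vulnerable ones, CA1 and CbG, had the largest differences in *Gria1*, *Gria2* and *Gria3*.

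Signals are MAS5 intensities on a linear scale, brought by the authors to 1 common level in each array. A probe set was tested where its signal exceeded the array median, which lay between 144.5 and 198.8, in at least 7 of the 10 arrays. Of the 14 probe sets 8 passed, namely 1 of *Gria1*, 2 of *Gria2*, 2 of *Gria3*, 2 of *Grin1* and 1 of *Grin2c*, and 6 did not. A difference was called when it was at least 1.5-fold and its adjusted p in limma was under 0.05, with p-values adjusted over all 7463 probe sets tested. Signals of different probe sets were not set against each other, because probes differ in brightness.

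**Figure D1:**
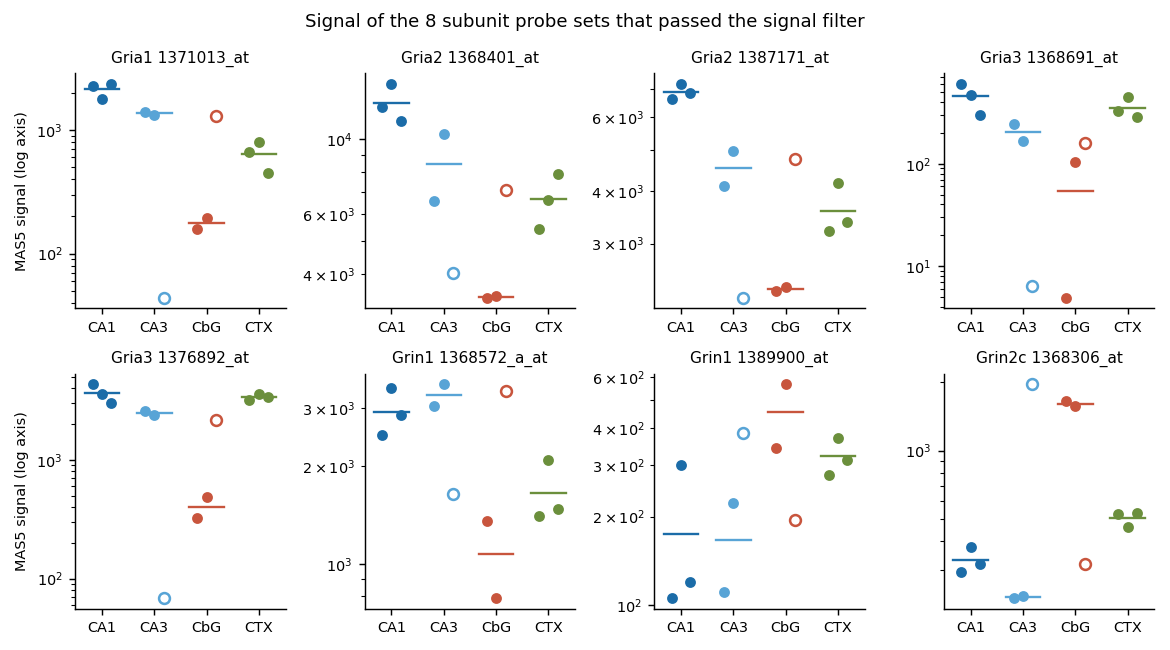
MAS5 signal (log axis) of the 8 tested probe sets in each of the 12 arrays by labelled region. Filled points are the 10 arrays fitted and bars their means, and open points are the 2 doubted arrays (CA3 and CbG replicates 3 as labelled). Each open point lies outside the range of the filled points of its own label, and among the filled points the 2 of CbG are lowest for *Gria1*, *Gria2* and *Gria3* and highest for *Grin2c*.

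*Gria1* encodes the AMPA subunit that is inserted into synapses during potentiation. Its probe set 1371013_at had signals of 2293, 1791 and 2364 in CA1, 1406 and 1331 in CA3, 159 and 193 in CbG, and 663, 795 and 445 in CTX. The regions did not overlap, in the order CA1, CA3, CTX and CbG. The mean was 2150 ± 313 (SD, n = 3) in CA1, 1370 ± 53.4 (n = 2) in CA3, 634 ± 176 (n = 3) in CTX and 176 ± 23.8 (n = 2) in CbG. The array labelled CA3 replicate 3 read 43.9 and that labelled CbG replicate 3 read 1299, of which the first is the lowest value of all. On the log2 scale CA1 exceeded CbG by 3.87 (SE 0.30, adjusted p = 1.19e-06 in limma) and CTX by 2.11 (SE 0.25, adjusted p = 1.07e-04), and CA3 exceeded CbG by 3.19 (SE 0.31, adjusted p = 9.79e-06) and CTX by 1.44 (SE 0.30, adjusted p = 0.00436). CbG was below CTX by a log2 difference of -1.75 (SE 0.30, adjusted p = 0.00115). The neighbours CA1 and CA3 did not overlap, but their difference was not called (0.67, SE 0.30, adjusted p = 0.184). One of the 2 CbG signals lay under the median of its array, and with signals under the median set to it, a setting added after the data were seen, CA1 was 13.4-fold and CA3 8.44-fold above CbG, both called.

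*Gria2* encodes the subunit that limits calcium entry through AMPA receptors. Probe set 1368401_at read 12466, 14569 and 11315 in CA1, 6551 and 10361 in CA3, 3400.3 and 3449.7 in CbG, and 5429, 6628 and 7899 in CTX. Probe set 1387171_at read 6642, 7199.7 and 6841 in CA1, 4115 and 4977 in CA3, 2312 and 2367 in CbG, and 3217, 4182 and 3386.5 in CTX. In both, every CA1 array lay above and every CbG array below all arrays of the other regions, while CA3 and CTX overlapped. The 2 doubted arrays read 4020 and 2229.7 (labelled CA3) and 7066 and 4761 (labelled CbG). Over the 12 arrays the centred log2 signals of the 2 probe sets had a Pearson correlation of 0.964. CA1 was above CbG by 2.05 (SE 0.23, adjusted p = 2.90e-05) by the first probe set and 1.76 (SE 0.21, adjusted p = 4.59e-05) by the second, and above CTX by 1.27 by both (SE 0.20 and 0.18, adjusted p = 6.02e-04 and 3.56e-04).

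The differences of *Gria2* between its lower regions were smaller. CA3 exceeded CbG 2.82-fold and 2.27-fold (log2 SE 0.24 and 0.22, adjusted p = 4.81e-04 and 0.00126). CbG was below CTX by -0.78 (SE 0.23, adjusted p = 0.0288) for 1368401_at and by -0.49 (SE 0.21, adjusted p = 0.111) for 1387171_at, of which only the first was called. That call was lost without any 1 of the arrays CA1 replicate 3, CbG replicate 2 and CTX replicates 1, 2 and 3, with adjusted p-values from 0.0629 to 0.163. CA3 exceeded CTX by 0.72 and 0.69 (adjusted p = 0.0336 and 0.0277), which shrank to 0.35 and 0.32 (adjusted p = 0.314 and 0.251) without centring. Both of these calls were lost without CA3 replicate 2 (adjusted p = 0.340 and 0.203), CTX replicate 1 (0.127 and 0.105) or CTX replicate 2 (0.138 and 0.0534), and that of 1387171_at also without CA1 replicate 3, CA3 replicate 1 or CTX replicate 3 (0.0576, 0.0997 and 0.0576). The differences between CA1 and CA3, whose arrays did not overlap, were not called (0.55 and 0.58, adjusted p = 0.166 and 0.110).

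*Gria3* encodes an AMPA subunit found mainly together with *Gria2* in forebrain neurons, and its gene is on the X chromosome. Probe set 1376892_at read 4314, 3545 and 2993 in CA1, 2568 and 2365 in CA3, 323 and 481 in CbG, and 3160.4, 3539.8 and 3401 in CTX. CbG stood apart from the 3 forebrain regions, and CTX overlapped CA1, unlike *Gria1* and *Gria2*. The means were 3620 ± 663 (SD, n = 3) in CA1, 2470 ± 144 (n = 2) in CA3, 3370 ± 192 (n = 3) in CTX and 402 ± 112 (n = 2) in CbG. The array labelled CA3 replicate 3 read 68.6 and that labelled CbG replicate 3 read 2174. CA1, CA3 and CTX exceeded CbG by 3.42 (SE 0.26, adjusted p = 9.31e-07), 2.87 (SE 0.27, adjusted p = 6.72e-06) and, as CbG minus CTX, -3.01 (SE 0.26, adjusted p = 5.75e-06). No difference among the 3 forebrain regions was called (absolute log2 differences between 0.14 and 0.55, adjusted p from 0.153 to 0.697), although both CA3 arrays lay below all CA1 and CTX arrays.

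The other *Gria3* probe set, 1368691_at, had dimmer signals with the same order against CbG. It read 602.5, 464.5 and 302 in CA1, 244 and 168 in CA3, 4.90 and 104 in CbG, and 329.7, 444 and 287 in CTX. It passed the filter through the 3 other regions, and both CbG signals lay under the median of their array (187 and 166), so differences against CbG are bounds only. With signals under the median set to it, CA1 was at least 3.25-fold above CbG (log2 1.70, adjusted p = 4.25e-05) and CTX at least 2.06-fold (CbG minus CTX -1.05, adjusted p = 0.00498), while CA3 minus CbG was 0.43 and not called (adjusted p = 0.185). On the signals as deposited its CA1 minus CbG difference was 4.67 (SE 0.83, adjusted p = 8.72e-04), its CA3 minus CbG difference 3.39 (SE 0.87, adjusted p = 0.00793) and its CbG minus CTX difference -4.01 (SE 0.83, adjusted p = 0.00441). Their size rests on the 4.90 of CbG replicate 1, and without that array they were 2.32 (adjusted p = 1.49e-04), 1.05 (adjusted p = 0.0242) and -1.67 (adjusted p = 0.00278). Without CbG replicate 2 they were 7.01, 5.74 and -6.36. The CA3 minus CbG call was also lost without CA3 replicate 1 (2.40, adjusted p = 0.0949).

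*Gria4* encodes the AMPA subunit best known from interneurons and from cerebellar glia and neurons. Its probe set 1369384_at read 33.3, 90.3 and 25.4 in CA1, 22.6 and 52.2 in CA3, 114 and 91.8 in CbG, and 19.2, 74.2 and 43.6 in CTX, and was under the array median in all 12 arrays. Both CbG values were above all values of the other regions, by a small margin over CA1 replicate 2. The array labelled CA3 replicate 3 read 76.8 and that labelled CbG replicate 3 read 54.5. Fitted without the signal filter, CbG exceeded CTX by 1.36 (SE 0.54, adjusted p = 0.223), CA3 minus CbG was -1.34 (SE 0.57, adjusted p = 0.177) and CA1 minus CbG was -0.94 (SE 0.54, adjusted p = 0.317). Signals this low cannot be told from an absent transcript here, as detection calls were not used.

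Within an array the ratio of 2 probe sets is free of the scale of that array, and its change between regions shows how the balance of subunits shifts. The log2 ratio of *Gria1* over *Gria2* was -2.58 ± 0.40 (SD, n = 3) in CA1, -2.59 ± 0.52 (n = 2) in CA3, -3.41 ± 0.64 (n = 3) in CTX and -4.29 ± 0.18 (n = 2) in CbG. *Gria1* was thus lower relative to *Gria2* in CbG than in CA1 by -1.71, and in no array of the hippocampus as low as in either CbG array. In the cortex, CTX replicate 3 was at -4.15, next to -4.16 in CbG replicate 2. A ratio of *Gria3* over *Gria2*, added after the values were seen, was -0.97 ± 0.22 in CTX, -1.83 ± 0.27 in CA1, -1.74 ± 0.55 in CA3 and -3.12 ± 0.39 in CbG. Only the change of these ratios between regions can be read, since the probe sets differ in brightness. Ratios with *Gria4* or *Grin2b* are not given, since their signals were under the array median in every array. The *Gria1* signal of CbG replicate 1 (159) was also under the median of its array (187), so the ratio of that array is less certain.

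**Figure D2:**
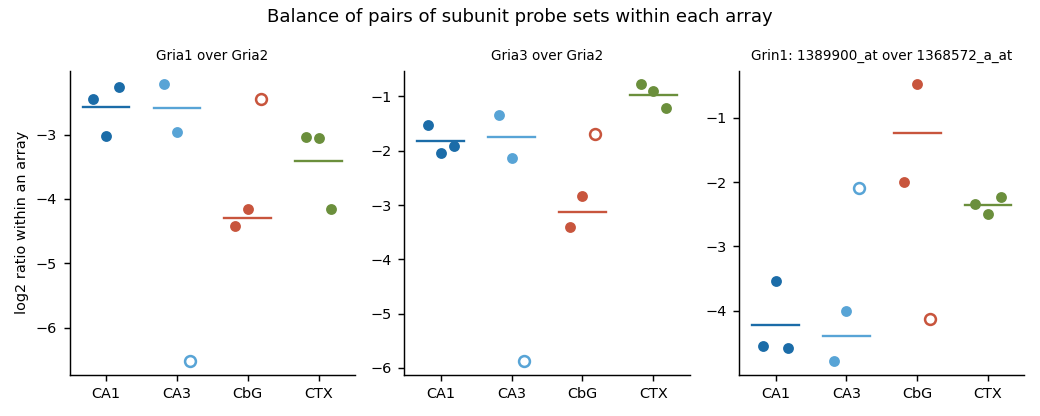
Log2 ratio of 2 subunit probe sets within each array (no unit), by labelled region, with filled points and mean bars for the 10 arrays fitted and open points for the 2 doubted arrays. CbG is lowest for *Gria1* over *Gria2* (mean -4.29) and *Gria3* over *Gria2* (-3.12) and highest for the ratio of the 2 *Grin1* probe sets (-1.24).

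*Grin1* encodes the subunit that every NMDA receptor contains, and its 2 probe sets ran in opposite directions. Probe set 1368572_a_at read 2479, 3465 and 2857 in CA1, 3046 and 3555.5 in CA3, 1362 and 789.6 in CbG, and 1409, 2086 and 1473 in CTX. Both hippocampal regions lay above CTX and CbG, and CbG lay below CTX. CA1 exceeded CbG by 1.71 (SE 0.28, adjusted p = 4.99e-04) and CTX by 1.16 (SE 0.24, adjusted p = 0.00345), and CA3 exceeded CbG by 1.90 (SE 0.29, adjusted p = 3.38e-04) and CTX by 1.34 (SE 0.28, adjusted p = 0.00484). The CA1 minus CTX call was lost by a narrow margin without CA1 replicate 3 or CTX replicate 3 (adjusted p = 0.0504 and 0.0505), and the CA3 minus CTX call without CA3 replicate 2 (0.0663). CA1 and CA3, which overlapped, were not called (-0.19, adjusted p = 0.732), and CbG and CTX, which did not overlap, were not called either (-0.55, SE 0.28, adjusted p = 0.168). Without CbG replicate 1 the latter difference became -1.10 (adjusted p = 0.0117).

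Probe set 1389900_at of *Grin1* read 105.5, 300.2 and 119.8 in CA1, 111 and 222 in CA3, 343 and 566 in CbG, and 277 to 372 in CTX. CbG lay above both hippocampal regions without overlap. CA1 minus CbG was -1.22 (SE 0.25, adjusted p = 0.00240) and CA3 minus CbG was -1.26 (SE 0.26, adjusted p = 0.00244). CA1 minus CTX and CA3 minus CTX were -0.71 and -0.75 (adjusted p = 0.0226 and 0.0383). Both calls were lost without CTX replicate 1 (adjusted p = 0.121 and 0.189) and without the replicate block (0.154 and 0.235). They were also lost without CA1 replicate 3 (0.157 and 0.0873) or CTX replicate 3 (0.157 and 0.0868), which gave the same estimates. The first was also lost without CA1 replicate 1 (0.121), and the second without either CA3 array (0.192 and 0.152). Signals of CA1 replicates 1 and 3 and of CA3 replicate 1 were under the array median, and with these set to it both CTX calls were lost as well (-0.42 and -0.50, adjusted p = 0.0864 and 0.0833), while those against CbG were kept. Over 12 arrays the centred log2 signals of the 2 *Grin1* probe sets had a Pearson correlation of -0.593, against 0.964 and 0.925 for the pairs of *Gria2* and *Gria3*. Within an array the log2 ratio of the second over the first, added after the values were seen, was higher in CbG than in CA1 by 2.98. The direction of *Grin1* between CbG and the hippocampus therefore depends on the probe set, and which one follows the transcript was not tested.

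*Grin2c* encodes the NMDA subunit that replaces *Grin2b* in granule neurons as the cerebellum matures. Probe set 1368306_at read 295, 379 and 319 in CA1, 226 and 231 in CA3, 1648 and 1562 in CbG, and 529, 465 and 534 in CTX. The 4 regions did not overlap, in the order CbG, CTX, CA1 and CA3. The means were 1600 ± 60.5 (SD, n = 2) in CbG, 509 ± 38.4 (n = 3) in CTX, 331 ± 43.3 (n = 3) in CA1 and 229 ± 3.61 (n = 2) in CA3. The array labelled CA3 replicate 3 had the highest signal, 1950.3, and that labelled CbG replicate 3 read 317.

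CbG exceeded CTX in *Grin2c* by 1.81 (SE 0.21, adjusted p = 7.25e-05), and CA1 minus CbG and CA3 minus CbG were -2.11 (SE 0.21, adjusted p = 1.10e-05) and -2.58 (SE 0.22, adjusted p = 3.64e-06). CA3 was also below CTX (-0.78, SE 0.21, adjusted p = 0.0162), a call that was lost without CA3 replicate 1 (adjusted p = 0.0989), CA3 replicate 2 (0.120) or CTX replicate 1 (0.0934). CA1 was called neither against CA3 (0.47, SE 0.21, adjusted p = 0.194) nor against CTX (-0.31, SE 0.18, adjusted p = 0.195), although neither pair overlapped. *Pcp2*, a Purkinje cell gene, read 1883 and 3602 in the 2 CbG arrays, against 295 in the doubted array with a CA3 label, and the part of Purkinje cell RNA in these differences was not tested.

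The sequences around a listed start of *Grin2c* and *Grin1* are shown because these NMDA subunits are the tested ones that RefSeq's table of promoters holds and because *Grin2c* and probe set 1368572_a_at of *Grin1* ran in opposite directions between CbG and the hippocampus. Each is 300 bases on the minus strand of GRCr8, read 5′ to 3′, chr10:101005089-101005388 for *Grin2c* and chr3:28528705-28529004 for *Grin1*, where *Grin2c* spans 100987410 to 101006064 and *Grin1* spans 28501836 to 28528754. Each window lies mostly before the start that the table lists and ends shortly after it, and the window of *Grin2c* lies inside the span of its gene. Capitals mark a GC box.
Grin2c: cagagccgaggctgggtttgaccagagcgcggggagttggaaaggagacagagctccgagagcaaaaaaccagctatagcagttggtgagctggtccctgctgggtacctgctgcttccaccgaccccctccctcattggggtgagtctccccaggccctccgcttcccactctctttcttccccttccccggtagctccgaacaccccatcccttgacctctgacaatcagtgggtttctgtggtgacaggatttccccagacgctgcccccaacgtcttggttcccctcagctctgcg
Grin1: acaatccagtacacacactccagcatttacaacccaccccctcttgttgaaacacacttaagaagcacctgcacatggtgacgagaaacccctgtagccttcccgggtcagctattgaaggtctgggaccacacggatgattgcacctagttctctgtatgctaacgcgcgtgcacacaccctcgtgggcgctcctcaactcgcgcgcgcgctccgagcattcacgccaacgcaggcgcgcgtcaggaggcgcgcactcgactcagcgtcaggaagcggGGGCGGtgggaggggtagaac
The GC box, searched as GGGCGG on both strands, was found 1 time in the *Grin1* window, 29 bases after the start, and 0 times in that of *Grin2c*. It is present in 33.1% of the 33469 promoters in the table. The TATA box TATAAA (14.2% of promoters) and the E-box CAGCTG (15.1%), neither of which overlaps the GC box, were in neither window. The GC content was 60.3% for *Grin2c* and 59.7% for *Grin1*, with a median of 51.7% over all promoters, and the windows held 11 and 25 CpG dinucleotides. The arrays measure transcripts and hold no readout at these sequences, so a match or its absence is a description only.

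*Grin2a* and *Grin2b* encode the main Grin2 subunits of forebrain neurons, and their probe sets were near or under the array median. Probe set 1369745_at of *Grin2b* read 102, 94.4 and 100.4 in CA1, 78.1 and 112.5 in CA3, 78.1 and 50.4 in CbG, and 124.5, 134 and 95.0 in CTX. The 2 CbG values were below those of CA1 and CTX. Without the filter, *Grin2b* was 0.90 higher in CA1 than in CbG (SE 0.33, adjusted p = 0.138) and CbG minus CTX was -0.82 (SE 0.33, adjusted p = 0.225), neither called. Probe set 1387400_at of *Grin2a* ranged from 16.7 to 203 and 1368985_at from 21.2 to 74.9 over the 12 arrays, with all pairs of regions overlapping. The 2 *Grin2a* probe sets had a correlation of -0.124 with each other.

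*Grin2d* encodes the NMDA subunit of the brainstem and of some interneurons. Its probe sets 1368950_a_at and 1368951_at ranged from 3.50 to 49.3 and from 18.7 to 102 over the 12 arrays, all under the array median, with a correlation of 0.176 between them. In the fit without a signal filter, none of the 6 low probe sets was called in any contrast. Unadjusted p-values in limma were under 0.05 for *Gria4* and *Grin2b* in CbG minus CTX and for *Grin2b* in CA1 minus CbG.

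**Figure D3:**
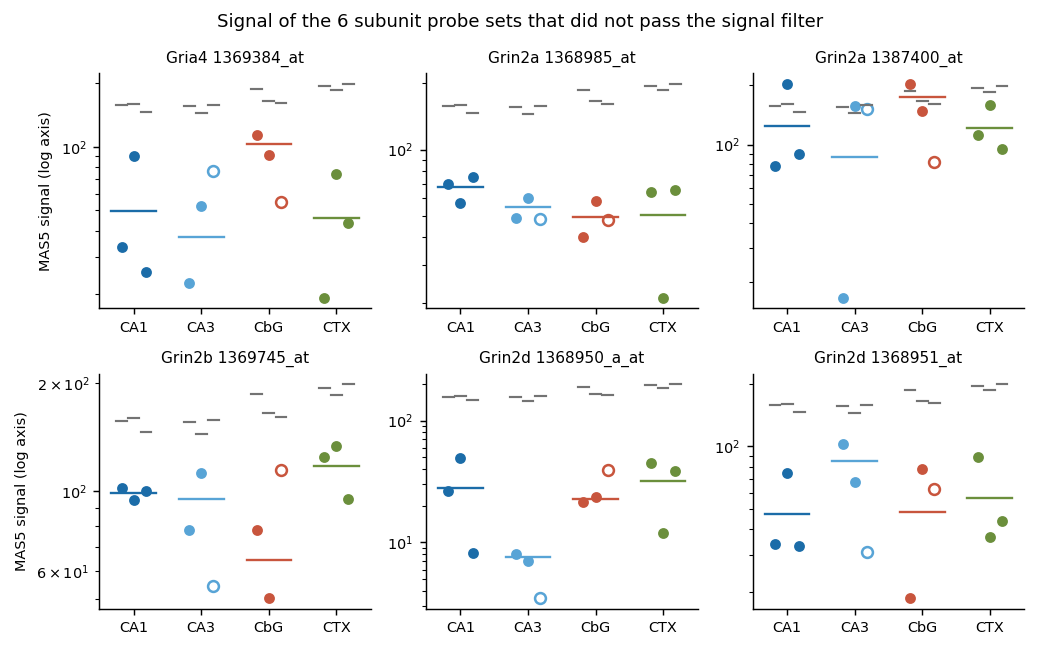
MAS5 signal (log axis) of the 6 probe sets that did not pass the signal filter, by labelled region, with filled points and mean bars for the 10 arrays fitted and open points for the 2 doubted arrays. Grey dashes mark the median signal of each array (144.5 to 198.8), which only some *Grin2a* 1387400_at points reach.

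The largest differences between pairs of regions were those against the granule layer. Between CA1 and CbG, both vulnerable, all 8 tested probe sets were called, against 39.3% of all 7463 tested, with *Grin1* 1389900_at and *Grin2c* higher in CbG and the others higher in CA1. Between CA3 and CbG all 8 were called as well, against 43.1%, in the same directions. With signals under the array median set to it, 7 of the 8 were called there, and *Gria3* 1368691_at was not. Between CA1 and CA3 the count was 0 of 8 over these 10 arrays, against 10.5% of all tested, with 0 of the 8 under an adjusted p of 0.05 in limma. Of the 8, *Gria1*, both *Gria2*, both *Gria3* and *Grin2c* had every CA1 array above both CA3 arrays, where signals of the 2 regions did not overlap in 46.9% of all tested, and their log2 differences ran from 0.47 to 1.27. Without CbG replicate 1 or CbG replicate 2, *Gria3* 1368691_at was called (1.27 with an adjusted p of 0.00428 and 0.00433). At an unadjusted p under 0.05 this contrast held 1838 probe sets, among them 4 of the 8 (*Gria1*, both *Gria2* and *Grin2c*).

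Against the cortex, CA1 and CA3 had more *Gria1* and *Grin1* by 1368572_a_at. *Gria2* was higher in CA1 without overlap, while CA3 and CTX overlapped. Between CA1 and CTX 5 of 8 probe sets were called, against 34.7%, with *Gria1*, both *Gria2* and *Grin1* 1368572_a_at higher in CA1 and *Grin1* 1389900_at lower. Between CA3 and CTX 6 of 8 were called, against 34.2%, with *Grin2c* lower in CA3 in addition. Centring matters here, since the median log2 difference of all tested probe sets was 0.33 for CA1 minus CTX and 0.36 for CA3 minus CTX, and without centring 0.01 and -0.02. Without centring the CA1 minus CTX differences were 1.79 for *Gria1* and 0.95 for both *Gria2* probe sets and stayed called, that of *Grin2c* became -0.63 (adjusted p = 0.0245), and the CA3 minus CTX calls were 4, with 2 higher and 2 lower. With quantile normalization CA3 minus CTX had 3 calls, 1 higher (*Gria1*) and 2 lower. Over all tested probe sets, 2044 were called higher and 544 lower in CA1 than in CTX, and 758 and 940 without centring. The CTX arrays also had the highest oligodendrocyte sums and *Mbp* signals of 11557 to 18128, against 2126 to 2951 in CA1, and the part of other cell types in these differences was not tested.

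**Figure D4:**
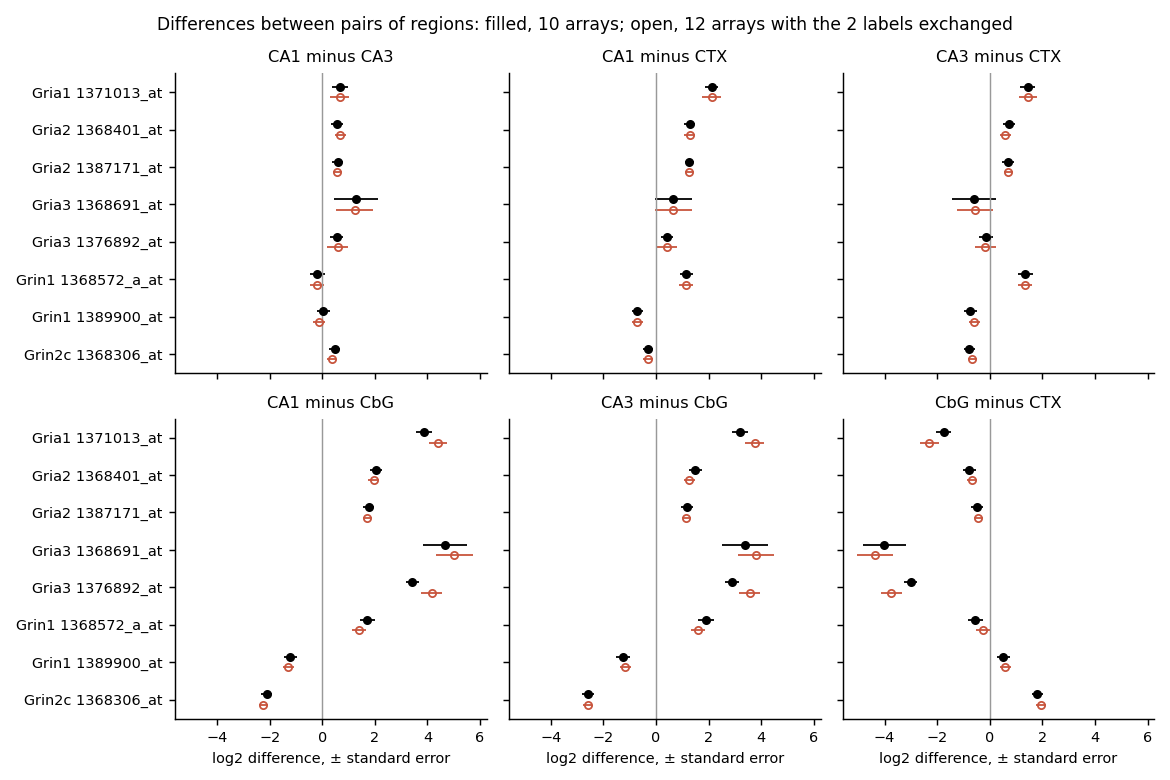
Log2 difference (± standard error from limma) between each pair of regions for the 8 tested probe sets, with filled points for the 10 arrays and open points for the 12 arrays with the 2 labels exchanged. The panels against CbG hold the largest differences, and CA1 minus CA3 has none above 1.27. Over the 10 arrays CA1 minus CbG was 4.67 for *Gria3* 1368691_at, 3.87 for *Gria1* and 3.42 for *Gria3* 1376892_at. Points of *Gria3* 1368691_at against CbG come from the signals as deposited. Their size is uncertain and is not a bound, as its CbG signals were under the array median.

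The study's own question sets the vulnerable against the resistant regions. Of the 8 probe sets 2 were called in VUL minus RES, against 17.8% of all tested, a share near that of the array: *Gria3* 1376892_at was lower in VUL (-1.23, SE 0.17, adjusted p = 4.00e-04) and *Grin2c* was higher (1.14, SE 0.14, adjusted p = 1.94e-04). For neither gene did the 2 vulnerable regions lie together. *Gria3* was low in CbG, while CA1 replicate 1 had its highest signal of all, and *Grin2c* was high in CbG, while every CA1 array lay below every CTX array. Without CA1 replicate 3 or CTX replicate 3, which gave the same estimate, *Gria1* was called too (-0.73, adjusted p = 0.0265 and 0.0262, against -0.54, SE 0.20, adjusted p = 0.0678 over 10 arrays). Without CbG replicate 2, *Gria3* 1368691_at was called (-2.54, adjusted p = 3.94e-06, against -1.37, SE 0.56, adjusted p = 0.0965), but with signals under the median set to it the difference was 0.11 (adjusted p = 0.664). Without CbG replicate 1, *Grin1* 1368572_a_at was called (-0.64, adjusted p = 0.0136, against -0.37, SE 0.19, over 10 arrays).

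The 2 pairs that make up this comparison behaved differently. In CbG minus CTX 5 of 8 were called, against 26.3%, with *Grin2c* higher and *Gria1*, *Gria2* 1368401_at and both *Gria3* lower in CbG. In CA1 minus CA3 no subunit was called over the 10 arrays, against 10.5% of all tested, and the differences of the AMPA subunits were above 0. The difference between the 2 differences, CA1 minus CA3 less CbG minus CTX, was called for 6 of 8, against 14.9%. It was 2.43 (SE 0.44, adjusted p = 0.00250) for *Gria1*, 3.56 (SE 0.38, adjusted p = 5.99e-05) for *Gria3* 1376892_at and -1.34 (SE 0.31, adjusted p = 0.0123) for *Grin2c*, and 1.33 and 1.07 for the 2 *Gria2* probe sets. The *Gria2* calls were lost without CA1 replicate 1, CA3 replicate 1, CbG replicate 2 or CTX replicates 1 or 2 (adjusted p from 0.0521 to 0.157), that of 1368401_at also without CA1 replicate 2 (0.0661) and that of 1387171_at also without CA3 replicate 2 (0.103) or CTX replicate 3 (0.0501). That of *Grin2c* was lost without CA1 replicate 1 (0.0640), CA3 replicate 2 (0.0580) or CTX replicate 2 (0.0671). For *Gria3* 1368691_at it was 5.28 (SE 1.23, adjusted p = 0.0120), 2.32 with signals under the median set to it, 2.94 without CbG replicate 1 and no longer called without CA3 replicate 2 (adjusted p = 0.0611).

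These counts turn on the 2 doubted arrays. Over the 12 arrays as labelled, 0 of the 8 probe sets were called in any of the 8 contrasts by limma, and the lowest adjusted p was 0.0876 (*Gria2* 1368401_at, CA1 minus CbG). All probe sets tested gave few calls there too: 0% for VUL minus RES and for CA3 minus CbG, 0.624% for CbG minus CTX, 1.25% for CA1 minus CbG, 1.3% for CA1 minus CA3, 1.94% for CA3 minus CTX, 2.07% for the difference of differences and 6.61% for CA1 minus CTX. As labelled, the mean of *Grin2c* was 802 ± 994 (SD, n = 3) in CA3 and 1180 ± 745 (n = 3) in CbG, and that of *Gria1* was 927 ± 766 in CA3 and 550 ± 648 in CbG. With the 2 labels exchanged these were 258 ± 51.3 and 1720 ± 204 for *Grin2c* and 1350 ± 55.2 and 132 ± 78.2 for *Gria1*.

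With the 2 labels exchanged, 8 of 8 probe sets were called in CA1 minus CbG (against 40.6% of all tested) and in CA3 minus CbG (45.5%), 5 in CA1 minus CTX (34.1%) and in CA3 minus CTX (36.3%), and 6 in CbG minus CTX (34%) and in the difference of differences (24%). In VUL minus RES 4 were called (18.5%), as *Gria1* (-0.82, adjusted p = 0.0229) and *Gria3* 1368691_at (-1.57, adjusted p = 0.0267) joined *Gria3* 1376892_at (-1.58, adjusted p = 0.00102) and *Grin2c* (1.15, adjusted p = 2.81e-05). For *Gria3* 1368691_at all arrays then counted as CbG read under their array median, at 4.9, 103.8 and 6.4. The size of its -1.57 is therefore uncertain, and its other calls against CbG here have the same limit. With signals under the median set to it and the 2 doubted arrays left out, this difference was not called. That floor was not applied with the labels exchanged. In CA1 minus CA3 1 was called (13.5%), *Gria2* 1368401_at at 0.69 (SE 0.21, adjusted p = 0.0409). The *Gria1* difference between CA1 and CbG was then 4.41 (SE 0.35, adjusted p = 3.56e-07) and that of *Grin2c* -2.24 (SE 0.18, adjusted p = 3.84e-07).

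Genes whose proteins handle the receptors were taken from lists of partners. Of 26 AMPA receptor partners (auxiliary subunits, pentraxins and trafficking proteins) 20 had a probe set and 13 were tested, by 1 probe set a gene. Between CA3 and CbG 7 of these 13 were higher in CA3 and 0 lower, where 43.1% of all tested were called in either direction, with a median log2 difference of 0.91 against 0.24 over all tested probe sets. Between CA1 and CbG 6 were higher in CA1 and 1 lower, where 39.3% of all tested were called (median 0.71 against 0.19), and in VUL minus RES 0 were higher and 5 lower, where 17.8% were called (median -0.26 against 0.04). The stargazin relatives *Cacng3*, *Cacng4*, *Cacng5*, *Cacng7* and *Cacng8* and the scaffold genes *Grip1* and *Grip2* did not pass the signal filter.

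*Cnih2*, which encodes a cornichon protein that slows AMPA receptor closing, read 2682, 3307 and 3269 in CA1, 1998 and 2280 in CA3, 153 and 91.0 in CbG, and 764, 731 and 835 in CTX. It followed the order of *Gria1*, with no overlap, and CA1 exceeded CbG by 4.84 (SE 0.25, adjusted p = 3.91e-08). Both CbG signals were under the array median, which makes CA1 at least 19.1-fold higher. *Shisa7*, another auxiliary subunit gene, read 1194, 1710.3 and 1228 in CA1, 330.1 and 524 in CA3, 99.6 and 54.8 in CbG, and 289 to 467 in CTX. It was called between CA1 and CA3, where 10.5% of all tested were, and was higher in CA1 by 1.71 (SE 0.31, adjusted p = 0.00441). *Nptxr*, the pentraxin receptor gene, was highest in CA3, at 4967 and 6266 against 1568 to 1930.1 in CA1, 1287 and 672 in CbG and 1964 to 2439 in CTX, and CA3 exceeded CbG by 2.82 (SE 0.29, adjusted p = 1.41e-05). *Nsf*, whose protein binds *Gria2*, read 2772 to 4837 in CA1, 5390.5 and 5549 in CA3, 3173 and 871 in CbG, and 3709 to 3869 in CTX. Its CA3 minus CbG difference was 1.95 (SE 0.40, adjusted p = 0.00200), or 1.41 with the 2 labels exchanged. The higher of the 2 CbG signals lay within the range of CA1.

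Of 17 NMDA receptor partners (scaffolds, kinases and further subunits) 14 had a probe set and 6 were tested. The subunit genes *Grin3a* and *Grin3b* and the scaffold genes *Dlg2* and *Dlg4* did not pass the filter. Between CA1 and CbG 3 of the 6 were higher in CA1 and 1 lower (median log2 difference 1.19 against 0.19 over all tested), where 39.3% of all tested were called in either direction, and the same counts held between CA3 and CbG, where 43.1% were. *Camk2a*, the calcium/calmodulin kinase activated by NMDA receptors, read 1083, 1403 and 1019 in CA1, 1589.9 and 1632 in CA3, 61.6 and 100.1 in CbG, and 1513 to 2562 in CTX. It was lowest in the granule layer, where both signals were under the array median, and CA3 exceeded CbG by 4.59 (SE 0.25, adjusted p = 1.15e-07), or at least 10.7-fold, and by 5.87 with the 2 labels exchanged. The 2 synaptic scaffold genes differed in direction: *Dlg1* read 3277 and 5129 in CbG against 635 to 802 in the hippocampus (CA1 minus CbG -2.36, SE 0.27, adjusted p = 2.93e-05), and *Dlg3* read 354.5 and 409.6 in CbG against 781 to 1353 in the hippocampus (1.95, SE 0.21, adjusted p = 1.86e-05). *Rasgrf1*, an exchange factor that binds *Grin2b*, read 4137.5 and 458 in CbG and 5471.5 to 8301 elsewhere, with a CA3 minus CbG difference of 2.68 (SE 0.63, adjusted p = 0.00479).

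Of the 3 RNA editing genes 2 were tested. *Adarb1*, whose enzyme edits the *Gria2* transcript at the site that controls calcium entry, read 1780, 1555 and 1774 in CA1, 3596 and 4392 in CA3, 3775 and 7119.5 in CbG, and 2512, 3385 and 2598 in CTX. CA1 lay below every other region, so that the highest *Gria2* signals and the lowest *Adarb1* signals were in the same 3 arrays. CA1 minus CbG was -1.42 (SE 0.28, adjusted p = 0.00173) and CA1 minus CA3 was -1.26 (SE 0.28, adjusted p = 0.0136), while CA1 minus CTX was not called. Editing itself is not measured by these arrays.

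**Figure D5:**
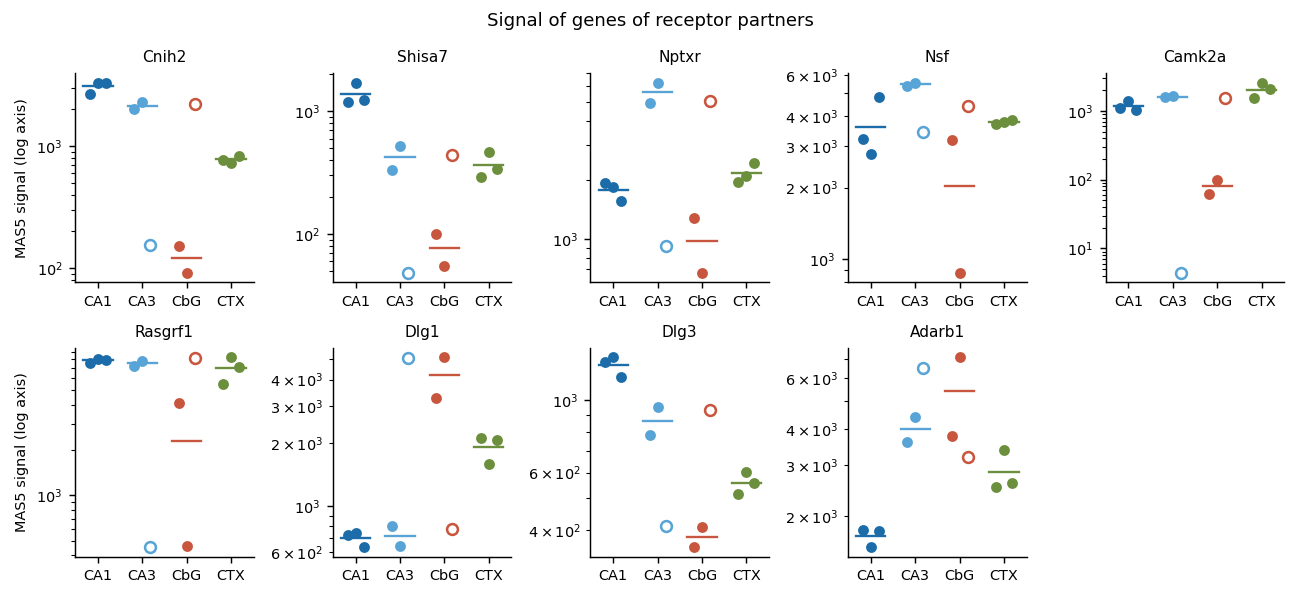
MAS5 signal (log axis) of 9 genes of receptor partners and RNA editing, by labelled region, with filled points and mean bars for the 10 arrays fitted and open points for the 2 doubted arrays. CbG is lowest for *Cnih2*, *Shisa7*, *Camk2a* and *Dlg3* and highest for *Dlg1*, and CA1 is lowest for *Adarb1*.

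The genes whose pattern was most like that of each tested subunit were ranked by Pearson correlation of centred log2 signal over all 12 arrays, among 5775 genes. *Gria1* was closest to *Abracl* (r = 0.985), *Fam110b* (0.979) and *Myo16* (0.978), and *Gria3* to *Jakmip1* (0.983), *Ociad2* (0.980) and *Camk2a* (0.978). *Gria2* was closest to *Speg* (0.964), *Clip2* (0.963) and *Dlg3* (0.956), the last 1 of the NMDA receptor partners. *Grin1*, by 1368572_a_at, was closest to *Ifngr2* (0.974), *Jpt1* (0.970) and *Tuba4a* (0.969), and *Grin2c* to *Dpysl4* (0.982), *Btg1* (0.978) and *Cux1* (0.977). For the low subunits the best values were 0.853 for *Gria4* (*Sin3b*), 0.932 for *Grin2a* (*Map2k3*), 0.924 for *Grin2b* (*Skida1*) and 0.877 for *Grin2d* (*Vps53*). The 12 arrays share 4 regions and these are the highest of many values, so they are a description.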

How the data were processed

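RNA of laser-captured neurons of 4 brain regions was measured on 12 Affymetrix RAE230A arrays. The deposited table holds linear MAS5 signal intensities, 1 column per array, which the authors computed in their scanner software and scaled to 1 target. The mean of the central signals, with 2% trimmed at either end, was 500.1 to 500.2 in each array. Detection calls and single-probe intensities were not used here, 0 columns were left without a sample, and the number of arrays limits the precision. The labels call the replicates biological.

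Probe sets were named with the array's gene table (12783 with 1 symbol, 312 with several, 2771 not listed), which named the 9 subunit genes through 14 probe sets. The 57 controls were left out. Signals were converted to log2, each array was centred on its median as the study's methods also do, and region means were fitted in limma 3.58.1 (R 4.3.3) with the replicate number as a block, since the methods compare regions with paired tests. A signal above the array median in at least 2/3 of the arrays stood in for the methods' Present call. p-values were adjusted by Benjamini-Hochberg over all probe sets tested, and 1.5-fold was the minimum for a call. Of each partner list, up to 4 genes were named, those with the largest difference among genes called between any 2 regions, and for likeness the 3 most correlated genes of each subunit. A partner gene was represented by its probe set with the highest mean signal. Promoters came from RefSeq (GRCr8), which held 4 of the 9 genes. The members, the lists, the tests and the choice of the 10 arrays were made with earlier results of these data known. The fit was tried on simulated data in which only CbG was changed, and only CA3 minus CbG was read. That trial does not bear on the other contrasts or on the replicate block. Figures were drawn with matplotlib 3.10.9 under Python 3.11.15.

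Alternatives were the 12 arrays as labelled and with 2 labels exchanged, each array or replicate number left out, quantile normalization, no centring, other filters and floors (the floor at the array median was added after seeing the data), no block, a robust trend prior and the methods' paired test. Whether equal replicate numbers mark 1 rat was checked from the deviations of the 10 arrays from their region means: the mean correlation was 0.12 over 13 pairs with the same number (from -0.04 to 0.22) and -0.07 over 24 pairs with different numbers.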

Additional observations from a re-analysis of the deposited data

Results flagged for a closer look

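For 6 probe sets the difference CA1 minus CA3 was unlike the difference CbG minus CTX by a test of the difference itself in limma over 10 arrays, at an adjusted p under 0.05. The log2 difference of differences was 2.43 for *Gria1*, 1.33 for *Gria2* 1368401_at, 1.07 for *Gria2* 1387171_at, 5.28 for *Gria3* 1368691_at, 3.56 for *Gria3* 1376892_at and -1.34 for *Grin2c* (adjusted p = 0.00250, 0.0220, 0.0395, 0.0120, 5.99e-05 and 0.0123). With the 2 doubted labels exchanged these 6 were called as well, and over the 12 arrays as labelled 0 were. Without the signal filter 1 of 14 probe sets was called, *Gria3* 1376892_at. Both CbG signals of *Gria3* 1368691_at were under the array median, so the size of its value is uncertain. The calls of *Gria2*, *Grin2c* and *Gria3* 1368691_at were also lost without single arrays, as given above.

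One sample stood far from the others of its group. The *Grin2a* probe set 1368985_at read 21.2 in CTX replicate 2 among 5 RES arrays, and on the centred log2 scale the gap to the next value was 0.783 of the range of the group. Of the 28 groups looked at 1 held such a value, and chance gives one in about 1 in 20.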

How the results depend on the processing

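Counts of called subunit probe sets held within 1.5 times under most alternatives of the 10 arrays, with these exceptions. As labelled, all 12 arrays gave 0 in each contrast. With the labels exchanged VUL minus RES gave 4, among them *Gria3* 1368691_at with CbG signals under the array median, and CA1 minus CA3 gave 1. CA1 minus CA3 also gave 1 with quantile normalization and with signals under 50 set to 50. VUL minus RES gave 3 with quantile normalization and without centring. Without a signal filter the counts were 3 for CA1 minus CTX, 0 for CA3 minus CTX, 2 for CbG minus CTX and 1 for the difference of differences. With a signal above the median in all arrays only 5 of the 8 were tested, of which 3 were called for CA1 minus CTX and CbG minus CTX and 5 of 5 for CA1 minus CbG and CA3 minus CbG. With signals under the array median set to it, added after seeing the data, CA1 minus CA3 gave 1 (*Gria3* 1368691_at at 1.27). Quantile normalization left 3 for CA3 minus CTX. The methods' paired test of VUL against RES passed 0 of the 8 subunit probe sets, unadjusted and after Benjamini-Hochberg, and over all probe sets 600 unadjusted and 0 adjusted. Without the replicate block the counts were 8 for CA1 minus CbG and CA3 minus CbG, 4 for CA1 minus CTX, 5 for CA3 minus CTX and CbG minus CTX, 2 for VUL minus RES, 0 for CA1 minus CA3 and 6 for the difference of differences, and the calls lost were those of *Grin1* 1389900_at against CTX. The replicate numbers were not shown to pair the arrays.

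Leaving out 1 array or replicate number gave 2 to 3 calls for VUL minus RES, 0 to 1 for CA1 minus CA3, 4 to 6 for CbG minus CTX, 7 to 8 for CA1 minus CbG and CA3 minus CbG, 3 to 6 for CA1 minus CTX, 1 to 6 for CA3 minus CTX and 3 to 6 for the difference of differences. Without replicate number 2 only 7 of the 8 probe sets were tested, so the counts there are out of 7. CA3 and CbG had 2 arrays each, so a lone array is there assumed to vary like the other regions. Replicate number 3 held only CA1 and CTX, so with the block leaving out either array took both out of the differences.

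Direction turned in these cases; the cause was not tested. As labelled, VUL minus RES was 0.80 for *Gria1*, 0.27 for *Gria2* 1368401_at, 0.074 for *Gria3* 1376892_at, 0.12 for *Grin1* 1368572_a_at and -0.10 for *Grin1* 1389900_at. CA1 minus CA3 was 0.14 for *Grin1* 1368572_a_at, -0.46 for *Grin1* 1389900_at and -0.52 for *Grin2c*. CbG minus CTX was 0.092 for *Grin1* 1368572_a_at, and CA3 minus CTX was -0.17 for *Gria1* and 0.22 for *Grin2c*. With the labels exchanged, VUL minus RES was 0.006 for *Gria2* 1368401_at and CA1 minus CA3 was -0.12 for *Grin1* 1389900_at, which was -0.052 without the block. VUL minus RES of *Gria2* 1387171_at was -0.002 without centring, and that of *Gria3* 1368691_at was 0.113 with signals under the median set to it. With 1 array or number left out, differences that were not called crossed 0 in these ranges: -0.314 to 0.018 for *Gria2* 1368401_at and -0.021 to 0.154 for *Gria2* 1387171_at in VUL minus RES, -0.24 to 0.21 for *Grin1* 1389900_at in CA1 minus CA3, and -1.12 to 0.076 for *Grin1* 1368572_a_at in CbG minus CTX. The others were -1.61 to 0.38 for *Gria3* 1368691_at in CA3 minus CTX and -0.32 to 1.05 for *Grin1* 1368572_a_at in the difference of differences. A low signal limits *Gria4*, *Grin2a*, *Grin2b* and *Grin2d*, whose probe sets lay near or under the array median.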
